A study of Mus musculus with 90 samples.

Results

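Expression was compared between chronic and naive YUMM2.1 cells 2 h after fresh IFNγ, across all genes. YUMM2.1 is a mouse melanoma line. The chronic cells had been cultured with 50 IU/mL IFNγ for 3 weeks and were rechallenged with fresh IFNγ for 2 h. The naive cells had 0 weeks of earlier exposure and received IFNγ for the same 2 h. Each group held 3 samples from triplicate experiments, so 6 of the 90 samples of the series entered the comparison, and 9589 of the 53697 genes in the table had enough counts to be tested. The series follows YUMM2.1 and the mouse colon carcinoma line CT26 in 15 groups each, exposed to IFNγ or to BSA without IFNγ (0 IU/mL), for 0, 1, 2 or 3 weeks. The comparison asks how cells that already live with IFNγ stand, shortly after a new dose, against cells that meet it for the first time. All cells grew in RPMI-1640 with serum and were replated before harvest, and no naive culture of 3 weeks of age received IFNγ for 2 h. The study's reporting notes say in general that its replicates were independent, while the labels do not describe how these triplicates were made. The p-values therefore measure only the spread between samples within a group, in an estimate shared by the 15 YUMM2.1 groups.

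IFNγ binds a receptor whose associated kinases, JAK1 and JAK2, phosphorylate STAT proteins, which enter the nucleus as dimers and bind GAS elements in target promoters. A first wave of targets includes the transcription factor IRF1, which acts on a second wave through ISRE elements. The targets include GTPases of cell-autonomous immunity, the immunoproteasome, peptide transporters and MHC molecules, and inhibitors such as SOCS1 that limit the signal. In melanoma cells IFNγ is known for raising antigen presentation together with the checkpoint ligand PD-L1, encoded by Cd274.

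Transcripts were counted by 3′ digital gene expression, which reads the 3′ ends of mRNAs. Total counts were 2370771, 1338990 and 1409962 in the naive samples and 1381309, 1303379 and 1403265 in the chronic samples, and the groups overlapped (exact two-sided permutation p = 0.4, where 0.1 is the smallest value that 3 against 3 samples can give). Values are CPM, counts scaled to the library size after TMM correction, and at these depths a few counts per sample are the limit of detection. Chronic replicate 2 had the highest TMM factor of the 6, 1.20 against 0.955 to 1.04 in the others. Of 16 melanocyte lineage genes, 5 had enough counts to be tested and 7 had 0 counts in all 6 samples; Sox10 was present at 50, 50 and 29 counts in the naive and 54, 84 and 40 counts in the chronic samples. The pigment genes Pmel, Mlana, Tyr, Tyrp1 and Dct, which define pigmented melanocytes, were at or near 0. The summed level of 12 leukocyte markers was 4.89 to 6.68 CPM in naive and 5.64 to 12.3 CPM in chronic samples, that of 10 epithelial markers 0.731 to 2.97 and 0.705 to 1.94 CPM, and that of 6 fibroblast markers 0 to 4.45 and 1.94 to 3.53 CPM. Of the leukocyte markers 7, Cd3e, Cd4 and Cd14 among them, had 0 counts in all 6 samples, and Cd68 had the most, with 7, 4 and 6 naive and 7, 16 and 7 chronic counts. Epcam, Krt8 and Krt18 had 0 counts as well. The 5 endothelial markers were carried by Pecam1, at 283 to 420 CPM, while Cdh5, Kdr and Tek had 0 counts. Pecam1 was lower in chronic cells, with a log2 fold change of -0.38 ± 0.12 (SE; adjusted p = 0.0402, edgeR), and kept this call in 6 of 15 alternative fits. The part of other cells in the results was not tested. In bulk samples, fewer cells expressing a gene and less RNA of it per cell cannot be told apart.

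At 2 h of IFNγ, chronic cells differed from naive cells at 777 of the 9589 genes (8.1%) in the quasi-likelihood test of edgeR, at a Benjamini-Hochberg adjusted p of 0.05. Of these, 481 genes were higher (5.02% of those tested) and 296 lower (3.09%). The increases were the larger changes. Among the 481, 352 differed at least 2-fold, 102 at least 4-fold and 49 at least 8-fold, with a median log2 fold change of 1.32, while among the 296, 44 differed at least 2-fold, 6 at least 4-fold and 0 at least 8-fold, with a median of -0.57. The higher genes had a median level of 23.4 CPM and the lower genes of 107 CPM, so the lower genes were the more abundant ones. The 3 chronic samples lay outside the range of the 3 naive samples in 413 of the 481 and in 285 of the 296. These genes were called from the same 6 samples, so this count is not separate support for the calls. The median log2 fold change of all genes tested was 0.04. With library totals as the only scaling that median was 0.17, and the split of the calls moved to 642 higher and 143 lower genes. The count rested on single libraries: 183 genes were called without chronic replicate 2, 279 without naive replicate 1 and 291 without naive replicate 3, against 697 to 1140 without each of the other libraries. Genes of 8 lists of interferon signalling and interferon targets made up 62 of the higher genes and 0 of the lower genes, out of 94 tested, and this count stood at 51 to 63 when any one of the 6 libraries was left out.

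**Figure D1:**
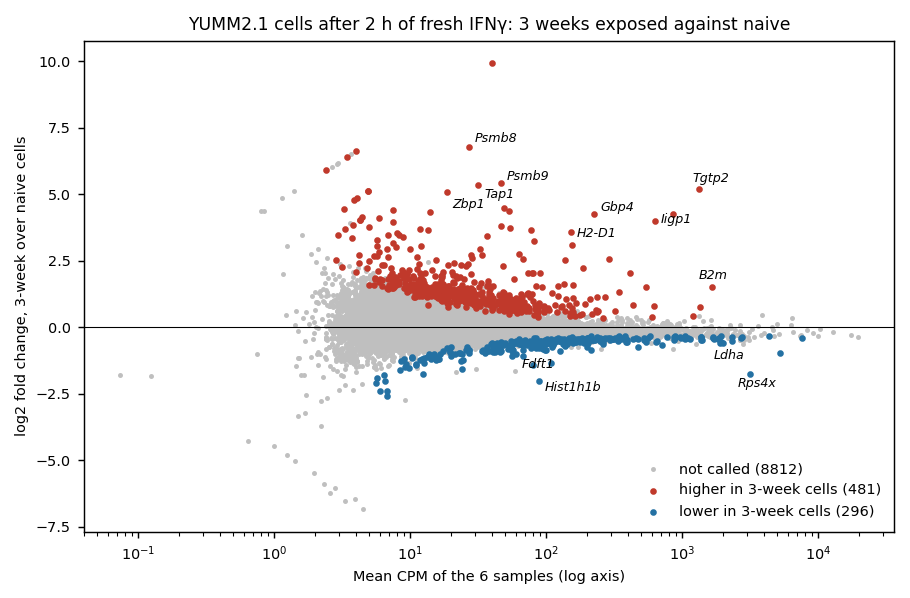
Each point is 1 of 9589 genes in YUMM2.1 cells after 2 h of IFNγ, with the mean CPM of the 6 samples on a log axis and the fitted log2 fold change of chronic (3-week) over naive cells on the vertical axis. The 481 higher genes (red) reach far larger changes than the 296 lower genes (blue), and the uppermost named points are interferon targets; the fitted change of genes with 0 naive counts, such as the top point Gvin1, depends on the prior count.

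Of the 11 genes for the IFNγ receptor, JAKs and STATs, 3 were higher in chronic cells and 0 lower. Stat3 and Stat2 were among them, higher by 1.65 ± 0.33 and 1.62 ± 0.44 on the log2 scale (SE, n = 3 per group; adjusted p = 8.58e-04 and 0.0158 by edgeR's quasi-likelihood test). Irf1, the first-wave transcription factor, stood at 177, 121 and 157 CPM in naive and 218, 216 and 216 CPM in chronic samples. The lowest chronic sample was above the highest naive one, yet the difference was small, 0.51 ± 0.15 (SE; adjusted p = 0.0227, edgeR). Stat2 and Irf1 did not pass the test without chronic replicate 2 (adjusted p = 0.0929 and 0.117, edgeR), and they lost the call without some of the naive libraries too. Among the other interferon-induced transcription factors, Nlrc5, the transactivator of MHC class I genes, was higher by 4.33 ± 0.58 and Batf2 by 4.12 ± 0.78 on the log2 scale (SE; adjusted p = 6.99e-07 and 5.28e-04, edgeR), from naive levels at the limit of detection. An RNA on the other strand, 9330175E14Rik, could share reads with Nlrc5, since the strand setting of the counts is not given. Of 10 feedback inhibitors of the pathway, only Usp18, which removes ISG15 and restrains the type I interferon receptor, was called higher (adjusted p = 0.00439, edgeR; 0.0625 without naive replicate 1), with 1 naive count in all against 27 chronic counts. Socs1 was not called, at 29, 16 and 17 counts in naive and 21, 43 and 15 counts in chronic samples.

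The guanylate-binding proteins (GBPs) and immunity-related GTPases (IRGs), which attack vacuoles that hold intracellular pathogens, were one of 3 lists in which every tested gene was called higher. They were 17 of the 19 listed, with a median log2 fold change of 3.08, where 5.02% of all genes were called higher and the median of all was 0.04, and 15 to 17 were called when any one library was left out. A gene could enter the test through the exposed groups alone, so a count over the tested genes of a list is not a count over all its members. Iigp1 was at 65.8, 86.3 and 69.0 CPM in the naive and 1252, 983 and 1302 CPM in the chronic samples. Every chronic sample was more than an order of magnitude above every naive sample, a log2 fold change of 4.01 ± 0.17 (SE; adjusted p = 1.03e-22, edgeR). Gbp2 was at 89.8, 74.6 and 80.1 CPM in naive and 494, 450 and 533 CPM in chronic samples. Gbp4 was at 22.2, 19.7 and 24.5 CPM against 446, 328 and 513 CPM, and Ifi47 at 36.5, 23.4 and 37.1 CPM against 298, 231 and 300 CPM. None of these groups overlapped, and the log2 fold changes were 2.58 ± 0.14, 4.27 ± 0.24 and 3.08 ± 0.18 (SE; adjusted p = 1.85e-19, 2.40e-18 and 6.40e-18, edgeR). The smallest change in the list was that of Irgm1, 0.82 ± 0.13, which was already at 525, 401 and 419 CPM in naive cells. Tgtp1 and Tgtp2 are near-identical copies and their split of reads is uncertain, and Igtp and Irgm2 overlap on the same strand. Gvin1 had 0 counts in every naive sample and 200, 151 and 0 counts in the chronic samples, so its groups overlapped. F830016B08Rik, a further interferon-inducible GTPase gene outside the list, was at 2.67, 7.31 and 5.19 CPM in naive and 98, 74.5 and 130 CPM in chronic samples, a log2 fold change of 4.39 ± 0.36 (SE; adjusted p = 7.52e-13, edgeR).

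The region before the transcription start was read for 4 GTPase genes of this list. These had the smallest p among the genes that the RefSeq promoter table of GRCm38.p6 holds, with the chromosome of Iigp1 left out. The aim was to show which of them carry the elements that STATs and IRFs are known to bind. Each sequence is the 250 bases before the start, on the gene's own strand, and capitals mark matches to GAS (TTCNNNGAA) or to the ISRE core (GAAA, any 2 bases, GAAA) on either strand. The windows are chr3:142620413-142620662 for Gbp2, chr11:49076337-49076586 for Ifi47, chr3:142530086-142530335 for Gbp7 and chr3:142559794-142560043 for Gbp3, all on the plus strand.
Gbp2: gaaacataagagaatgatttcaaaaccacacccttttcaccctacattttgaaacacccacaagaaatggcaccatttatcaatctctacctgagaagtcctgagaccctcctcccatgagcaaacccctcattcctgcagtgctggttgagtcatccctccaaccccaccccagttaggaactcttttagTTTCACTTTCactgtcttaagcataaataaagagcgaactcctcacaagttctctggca
Ifi47: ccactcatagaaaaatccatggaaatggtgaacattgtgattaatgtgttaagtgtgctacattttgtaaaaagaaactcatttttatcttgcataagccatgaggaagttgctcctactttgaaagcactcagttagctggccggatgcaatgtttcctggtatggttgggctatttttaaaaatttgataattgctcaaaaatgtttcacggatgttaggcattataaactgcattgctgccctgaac
Gbp7: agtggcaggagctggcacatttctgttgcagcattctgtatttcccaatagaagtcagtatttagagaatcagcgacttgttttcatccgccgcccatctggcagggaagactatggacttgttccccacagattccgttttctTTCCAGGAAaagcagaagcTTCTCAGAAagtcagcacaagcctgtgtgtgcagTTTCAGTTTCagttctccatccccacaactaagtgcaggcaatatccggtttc
Gbp3: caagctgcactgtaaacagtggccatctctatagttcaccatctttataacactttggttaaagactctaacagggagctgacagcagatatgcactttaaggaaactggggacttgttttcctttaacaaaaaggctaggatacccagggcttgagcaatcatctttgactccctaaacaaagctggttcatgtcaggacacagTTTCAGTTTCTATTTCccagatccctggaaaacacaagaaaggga

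Gbp2 holds 1 ISRE core, 59 to 50 bases before the start, Gbp7 holds 1 at 53 to 44 bases beside 2 GAS matches, and Gbp3 holds 2 that overlap each other between 45 and 30 bases. Ifi47 holds neither in this window. Of the 17 higher GTPase genes, 9 had a promoter in the table, and 8 of the 9 held an ISRE core and 5 of the 9 a GAS within 300 bases around the start. Over all 27025 promoters the ISRE core was in 3.5% and GAS in 8.5%, over the 7284 promoters of genes tested in 3.2% and 6.5%, over the 359 of higher genes in 10.6% and 8.9%, and over the 210 of lower genes in 2.9% and 5.2%. AP-1 (TGANTCA) was in 7.9% of all promoters, 4.6% of those tested, 9.2% of those of higher and 5.2% of those of lower genes. In the same order, the cAMP response element (TGACGTCA) was in 1.9%, 3.5%, 3.6% and 4.3%, the CArG box in 1.6%, 1.2%, 0.8% and 3.8%, and the NF-kB motif (GGG, any 2 bases, TTTCC) in 1.6%, 1.5%, 2.2% and 2.4%. A match is a description of the letters, not of a bound site.

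Antigen processing and MHC class I genes made up the second large block. Of 16 tested, 14 were higher in chronic cells and 0 lower, with a median log2 fold change of 2.47 (2.20 with H2-K1, which had 0 naive counts, at its bound). The immunoproteasome subunit Psmb9 was at 0.445, 2.93 and 3.71 CPM in naive and 100, 78.4 and 93.8 CPM in chronic samples, and the peptide transporter Tap1 at 0.445, 3.66 and 0.742 CPM against 52.2, 83.6 and 49.8 CPM. Both were close to the limit of detection in naive cells at 2 h and did not overlap between groups (log2 fold changes 5.42 ± 0.31 and 5.36 ± 0.51, SE; adjusted p = 2.40e-18 and 6.50e-11, edgeR). For Psmb8, a further immunoproteasome subunit, 2 counts in the naive samples stood against 234 in the chronic samples, a ratio of 134 after scaling (95% interval 36.6 to 1109, counting error only). The class I heavy chain H2-D1 was at 26.2, 19.0 and 23.7 CPM in naive and 281, 307 and 255 CPM in chronic samples, a log2 fold change of 3.59 ± 0.19 (SE; adjusted p = 3.74e-19, edgeR). B2m, the light chain, was abundant already in naive cells at 963, 763 and 835 CPM and reached 2721, 1911 and 2729 CPM, a log2 fold change of 1.52 ± 0.16 (SE; adjusted p = 2.17e-09, edgeR). The class I genes are near-identical copies, so the division of reads among them is uncertain. The count of 14 did not change when any one library was left out. The 4 tested genes of the MHC class II pathway were all higher but low, at 32.4 to 42.6 CPM summed over the list in chronic and 0 to 2.93 CPM in naive samples. H2-Eb1 had 0 naive counts and was at least 4.15-fold higher, with 3 counts per library taken as the floor. Ciita, the class II transactivator, was not tested and had 0 naive and 24 chronic counts, at least 2.83-fold more on the same floor. H2-DMb1 had 6 naive against 64 chronic counts and H2-Aa 1 against 33.

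The interferon-induced PARPs and Dtx3l were higher in all 6 of 6 tested genes, with a median log2 fold change of 2.52. Parp14, a mono-ADP-ribosyltransferase (GRCm38 chr16:35832874-35871544, minus strand), was at 7.56, 9.51 and 8.90 CPM in naive and 31.0, 58.3 and 38.2 CPM in chronic samples. The groups were well apart, with a log2 fold change of 2.31 ± 0.37 (SE; adjusted p = 1.98e-05, edgeR). Its neighbour Parp9 went from 5.34, 5.12 and 11.9 CPM to 48.0, 53.1 and 43.3 CPM, or 2.73 ± 0.32 (SE; adjusted p = 2.54e-08, edgeR). Of 24 antiviral and ISG15-related genes, 15 were higher and 0 lower (9 without naive replicate 1, 12 to 15 without each of the others). Zbp1, a sensor of Z-form nucleic acids, led them with 5 naive against 158 chronic counts, a ratio of 36.1 after scaling (95% interval 15.1 to 113, counting error only). Rtp4, Ifit3 and Bst2, the last a tether of budding virions, had log2 fold changes of 2.03, 2.03 and 1.56.

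Among ligands that act on other cells, Cd274 was at 8.01, 8.05 and 8.90 CPM in naive and 25.4, 22 and 30.3 CPM in chronic samples. The lowest chronic sample exceeded every naive sample, and the log2 fold change was 1.63 ± 0.40 (SE; adjusted p = 0.00702, edgeR; 0.0505 without naive replicate 1), from 11 to 18 counts per naive sample. It was the only one called of 6 tested checkpoint and lymphocyte ligands. Of 8 chemokines and cytokines, 3 were higher. Cxcl10, which attracts CXCR3-bearing T cells, went from 17.8, 16.1 and 14.1 CPM to 67.0, 86.2 and 85.1 CPM, a log2 fold change of 2.29 ± 0.30 (SE; adjusted p = 2.81e-07, edgeR). Lif, a ligand of the gp130 receptor family, was higher by 2.38 ± 0.44 (SE; adjusted p = 3.05e-04, edgeR), and Csf1 by 1.13 with overlapping groups. For Lif the naive samples were at 6.23, 14.6 and 5.19 CPM and the chronic samples at 35.3, 71.9 and 25.2 CPM, with replicate 2 the highest in each group.

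**Figure D2:**
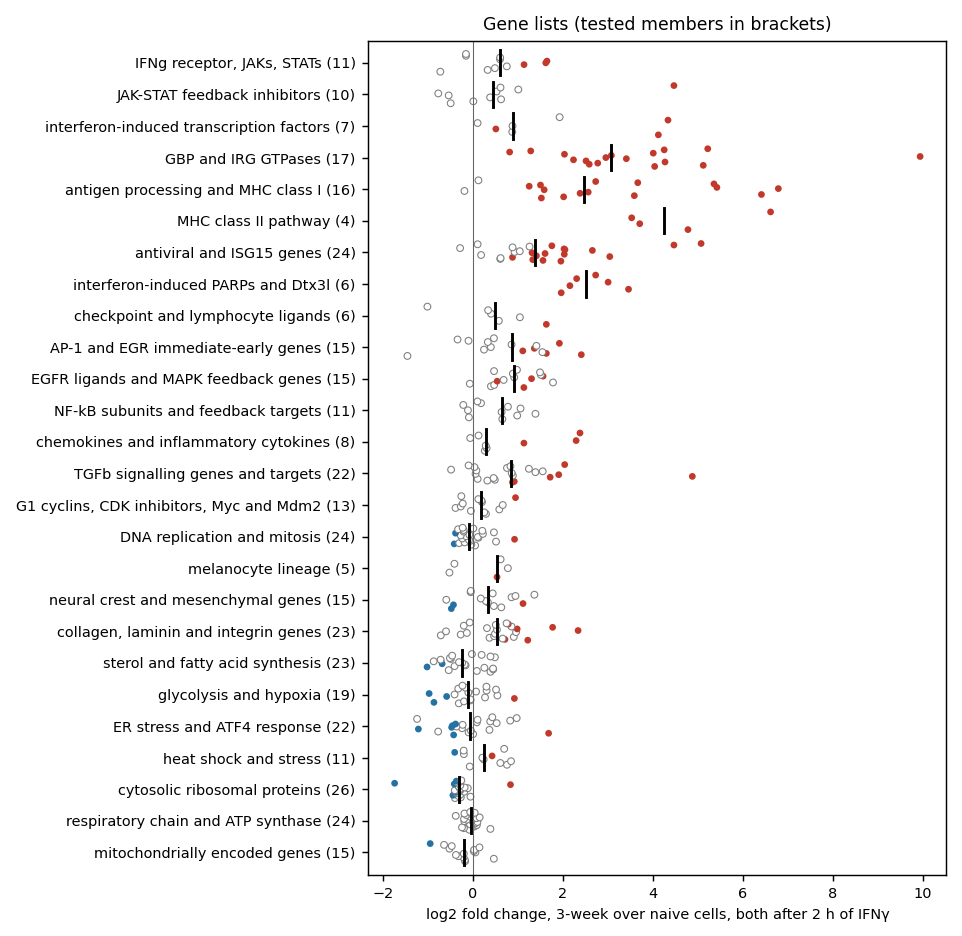
Each point is a tested gene of a list, placed by its fitted log2 fold change of chronic over naive YUMM2.1 cells after 2 h of IFNγ; filled points passed an adjusted p of 0.05 (red higher, blue lower), open points did not, and black bars mark list medians. The GTPase list (17 of 17 called higher), antigen processing (14 of 16), PARPs (6 of 6) and MHC class II (4 of 4) lie to the right, while the ribosomal proteins lie left of 0 except 1.

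The difference at 2 h has 2 components, the level from which the cells started and the response to the fresh dose. Before rechallenge, 3-week cells differed from 0-week control cells at 236 genes (2.46%; 109 higher, 127 lower), in samples not used at 2 h. Of the 777 genes called at 2 h, 120 were also called there, 77 higher and 43 lower and each in the same direction, which is 15.4% of the 777 and 50.8% of the 236. In all, 692 of the 777 (89.1%) had the same sign before rechallenge, against 66.4% of all genes. Of the 62 interferon-list genes higher at 2 h, 42 were already higher before the fresh dose. Among the samples before rechallenge, 3-week replicate 3 had 274719 counts, under 25% of the median of the line.

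In naive cells 2 h of IFNγ changed 23 genes (0.24%), all of them higher, and in chronic cells 104 genes (1.08%; 84 higher, 20 lower). The 2 responses differed at 11 genes (0.115%; 648 at an unadjusted p below 0.05), and those named here were chosen after their values were seen. In 7 of the 11 the response of chronic cells was smaller. They included the GTPases Irgm2, Iigp1, Igtp, Gbp2, Gbp7 and Irgm1, with differences on the log2 scale of -3.03, -2.73, -2.29, -1.92, -1.89 and -1.50. These genes started from a raised level and still ended higher. Iigp1, for example, was at 2.60 ± 1.98 CPM in control cells and at 240 ± 11.6 CPM in 3-week cells before rechallenge (SD, n = 3), and its log2 responses were 5.04 and 2.30. The other 4 genes responded more in chronic cells: Sphk1, a sphingosine kinase, by 5.53, Coq10b by 2.45, the EGFR ligand Hbegf by 1.62 and the urokinase receptor Plaur by 1.16 (adjusted p = 0.00261, 0.0347, 1.13e-04 and 0.0103, edgeR). Sphk1 rests on 0, 2 and 3 naive counts. Without replicate 1, 2 or 3 in all groups, 1, 0 and 2 genes were called with a larger response in chronic cells and 1, 6 and 7 with a smaller one. These counts were 10 and 11 with DESeq2, and 1 and 8 when only the compared groups were fitted.

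The lists divided by these components. The GTPases had median log2 values of 4.69 for the difference before rechallenge, 3.01 for the naive and 1.93 for the chronic response, and 10 of the 17 passed the test of each response. Antigen processing genes had 3.02 before rechallenge, 0.57 for the naive and 0.23 for the chronic response. All 14 that were higher at 2 h were already higher before, and 0 of them passed the test of the naive response (7 at an unadjusted p below 0.05) and 1 that of the chronic response. H2-D1 stood at 26.0 ± 9.22 CPM in control and 220 ± 13.4 CPM in 3-week cells without rechallenge (SD, n = 3), and its log2 responses at 2 h were -0.06 and 0.35, neither called. Parp14 was at 1.6 ± 0.357 CPM in control and 7.84 ± 5.4 CPM in 3-week cells without rechallenge, a difference that was not called (adjusted p = 0.16, edgeR). Its log2 responses were 2.31 in naive cells, not called (adjusted p = 0.0683, edgeR), and 2.80 in chronic cells (adjusted p = 3.91e-05, edgeR). Cd274 had log2 responses of 2.25 and 2.63 (adjusted p = 0.132 and 0.00114, edgeR), and Cxcl10 of 3.43 and 4.53 (adjusted p = 2.90e-05 and 8.46e-11, edgeR). The difference between the responses was not called for any of these 3 genes.

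**Figure D3:**
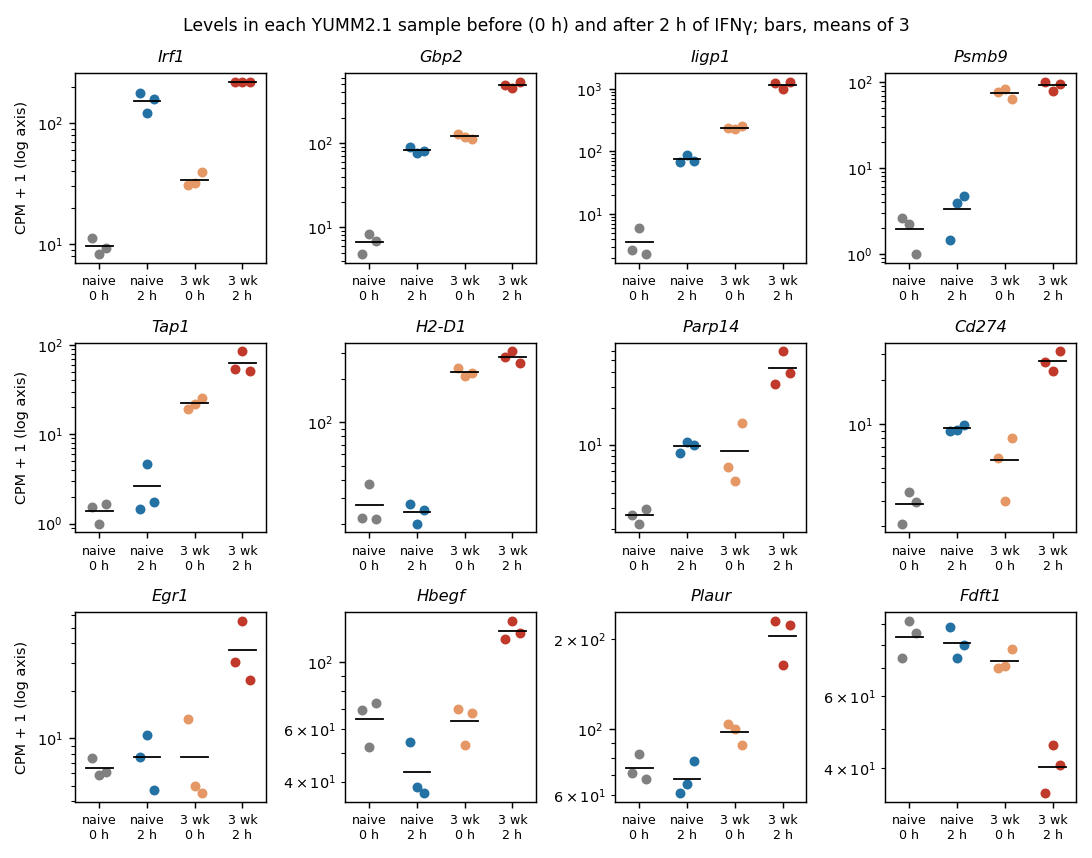
CPM plus 1 on a log axis in each YUMM2.1 sample for 12 genes, in naive control cells (0 h), naive cells after 2 h of IFNγ, and 3-week cells before (0 h) and after 2 h of rechallenge; bars are means of 3 samples. Psmb9 and H2-D1 are already high in 3-week cells at 0 h, Iigp1 and Gbp2 are raised at 0 h and rise again, and Egr1, Hbegf and Fdft1 differ from the other groups in 3-week cells at 2 h.

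**Figure D4:**
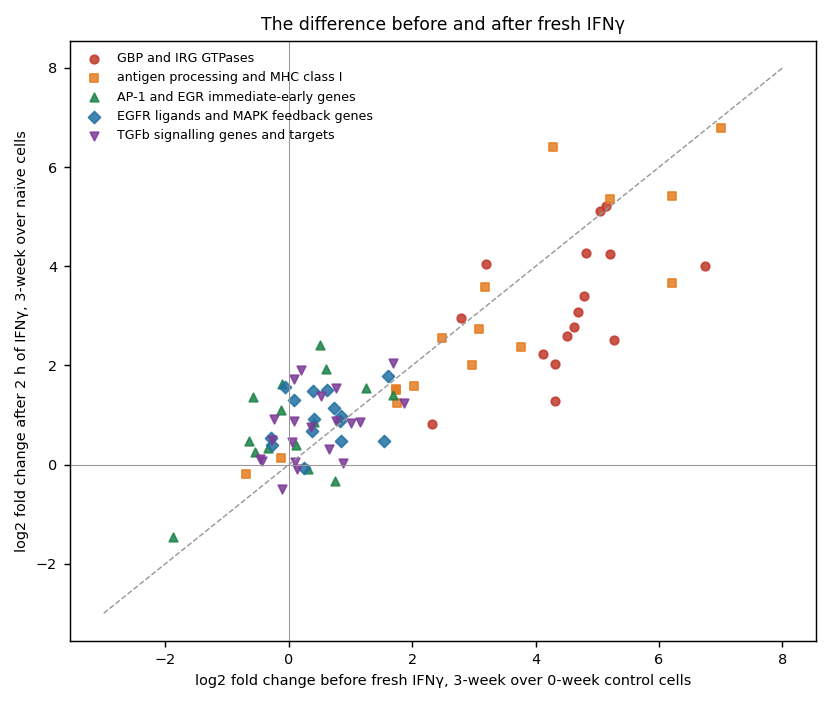
For genes of 5 lists, the fitted log2 fold change of 3-week over 0-week control cells before fresh IFNγ is on the horizontal axis and that of chronic over naive cells after 2 h of IFNγ on the vertical axis; the dashed line marks equal values. Most GTPases (red) lie below the line, antigen processing genes (orange) near it, and the AP-1/EGR, EGFR and TGFβ genes mostly above it near a horizontal value of 0; Gvin1 and 1 further gene are not shown.

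Beside interferon targets, chronic cells at 2 h had higher levels of 15 genes from 3 lists that growth factor and TGFβ signals are known to act on. Of 15 AP-1 and EGR immediate-early genes 5 were higher and 0 lower, of 15 EGFR ligands and MAPK feedback genes 4 and 0, and of 22 TGFβ signalling genes and targets 6 and 0, against 5.02% and 3.09% of all genes. The list medians were 0.86, 0.92 and 0.85 on the log2 scale, and 3 or 4, 2 to 4 and 3 to 7 genes were called when any one library was left out. The fewest TGFβ genes were called without chronic replicate 2 and the fewest EGFR genes without naive replicate 3. Egr1, a zinc finger factor induced by ERK signalling, was at 6.67, 9.51 and 3.71 CPM in naive and 29.6, 54.4 and 22.4 CPM in chronic samples. The groups did not overlap, though the chronic samples spread widely, with replicate 2 the highest (log2 fold change 2.41 ± 0.43, SE; adjusted p = 1.45e-04, edgeR). Junb, an AP-1 subunit, went from 11.1, 7.31 and 8.16 CPM to 40.2, 25.9 and 38.2 CPM, or 1.92 ± 0.33 (SE; adjusted p = 1.06e-04, edgeR). Hbegf was at 53.4, 37.3 and 35.6 CPM in naive and 119, 137 and 124 CPM in chronic samples, 1.56 ± 0.17 (SE; adjusted p = 2.19e-09, edgeR). Errfi1, which inhibits EGFR, and Dusp6, which dephosphorylates ERK, were higher by 1.30 ± 0.25 and 0.54 ± 0.13 on the log2 scale (SE; adjusted p = 5.03e-04 and 0.00815, edgeR). In the TGFβ list, Skil, a SMAD co-repressor, was at 9.34, 8.05 and 11.9 CPM in naive and 38.1, 34.3 and 37.5 CPM in chronic samples, a log2 fold change of 1.91 ± 0.29. The matrix protein Thbs1 was at 22.2, 46.1 and 26.7 CPM against 117, 176 and 88.7 CPM, or 2.04 ± 0.29 (SE; adjusted p = 9.03e-06 and 2.04e-06, edgeR). Plaur, outside these lists, was at 60, 64.4 and 77.2 CPM in naive and 229, 163 and 221 CPM in chronic samples, 1.61 ± 0.16 (SE; adjusted p = 1.06e-10, edgeR).

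Of the 15 genes called in these 3 lists together, 1 was higher before rechallenge, 0 passed the test of the naive 2 h response (3 at an unadjusted p below 0.05) and 10 passed that of the chronic response. These tests share the 2 h samples by which the 15 were called, and in the test of the difference between the 2 responses 1 of the 15, Hbegf, passed. It was at 63.8 ± 11.1 CPM in control cells and 62.6 ± 9.19 CPM in 3-week cells before rechallenge, and Egr1 at 5.53 ± 0.894 and 6.58 ± 4.89 CPM (SD, n = 3). Myc was higher by 0.95 ± 0.21 (SE; adjusted p = 3.23e-03, edgeR), the only one called of 13 G1 cyclins, CDK inhibitors, Myc and Mdm2. Of 11 NF-kB subunits and feedback targets 0 were called by edgeR or DESeq2 and 4 had an unadjusted p below 0.05 in edgeR, while 8 of the 11 had a positive change and the median was 0.64. With edgeR 2 were called higher without chronic replicate 3, 1 without naive replicate 2 and 1 with library totals only. Of 23 collagen, laminin and integrin genes 6 were higher and 0 lower, among them the fibronectin receptor subunit Itga5 by 2.34 ± 0.55 (SE; adjusted p = 0.00494, edgeR), but 1 was called without chronic replicate 2, naive replicate 1 or naive replicate 3. Of 15 neural crest and mesenchymal genes 1 was higher and 2 lower, against 5.02% and 3.09% of all genes, with the filament gene Nes at 72.5, 148 and 79.4 CPM against 190, 297 and 153 CPM. None of the 15 was called without chronic replicate 2 or naive replicate 1, 1 was called lower without naive replicate 3, and 3 were higher and 1 lower without chronic replicate 3. Gpnmb, a melanosomal glycoprotein, was higher by 0.54 ± 0.15, and control cultures also gained it over 3 weeks, by 1.15 (adjusted p = 0.0229 and 4.10e-06, edgeR).

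The lower genes were mostly abundant and changed little each. Against the counts that follow, 3.09% of all genes were lower and 5.02% higher. In sterol and fatty acid synthesis 3 of 23 genes were lower and 0 higher. Without chronic replicate 2 or naive replicate 1, 2 were lower, without naive replicate 3 it was 3 and without chronic replicate 1 it was 4. There were 5 lower without chronic replicate 3, and 6 lower and 1 higher without naive replicate 2. Fdft1, the squalene synthase, was at 87.2, 73.1 and 78.7 CPM in naive and 33.8, 44.7 and 39.7 CPM in chronic samples. Its groups were far apart and it fell by 1.02 ± 0.16 on the log2 scale (SE; adjusted p = 1.78e-05, edgeR), and Msmo1 and Idi1, of the same pathway, fell by 0.71 and 0.68. Idi1 kept its call in 10 of 15 alternatives. Before rechallenge Fdft1 was at 72.1 ± 4.39 CPM against 82.6 ± 8.75 CPM in control cells (SD, n = 3), a difference that was not called. In glycolysis and hypoxia 3 of 19 genes were lower, with lactate dehydrogenase Ldha at 2510, 2050 and 2243 CPM against 1695, 1257 and 1592 CPM and Bnip3 and P4ha2 lower by 0.86 and 0.97 on the log2 scale, while Hk1 was higher. P4ha2 kept its call in 6 of 15 alternatives and Hk1 in 11. With any single library left out, 2 or 3 genes of this list were lower. In the ER stress list 5 of 22 were lower, such as the chaperone Hspa5, from 451, 466 and 461 CPM to 301, 328 and 364 CPM, while Atf5 was higher. Herpud1, an ER protein of the unfolded protein response, was at 25.8, 34.4 and 42.3 CPM in naive and 13.4, 13.6 and 16.6 CPM in chronic samples (log2 fold change -1.21 ± 0.26, SE; adjusted p = 0.00221, edgeR). Without chronic replicate 2, naive replicate 1 or naive replicate 3, 2 genes of the ER stress list were called lower. The list medians were -0.24 for sterol, -0.10 for glycolysis and -0.07 for ER stress genes, and the last 2 were 0.04 and 0.07 with library totals as the only scaling. Of 11 heat shock genes, the mitochondrial chaperonin Hspd1 was lower by 0.40 and Hsp90ab1 higher by 0.43 with overlapping groups.

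Of 26 cytosolic ribosomal proteins 7 were lower and 1, Rps2, higher, with a median of -0.30 that was -0.18 with library totals as the only scaling. None of the 7 lower calls was made without chronic replicate 2 or without naive replicate 3, and 1 was without naive replicate 1. Over all 81 ribosomal protein genes tested, a family chosen after its values were seen, 12 were lower and 1 higher, and 79 had a negative change, with a median of -0.32. Rps4x was at 2575, 2164 and 9864 CPM in naive and 1525, 908 and 1943 CPM in chronic samples, and naive replicate 3 was far above the other naive samples. Its log2 fold change of -1.74 was -0.71 without that library (adjusted p = 0.393, edgeR). Ribosomal protein transcripts took 17.1%, 14.6% and 16.6% of the counts in naive and 14.3%, 12.8% and 14.5% in chronic samples. Of 13 replication-dependent histone genes, also a family chosen after its values were seen, 3 were lower and 0 higher. Hist1h1e kept its call in 6 of 14 alternatives and Hist1h4d in 9 of 15. Hist1h1b, a linker histone, was at 121, 110 and 197 CPM in naive and 31.7, 20.7 and 54.1 CPM in chronic samples (log2 fold change -2.01 ± 0.44, SE; adjusted p = 2.59e-03, edgeR). These mRNAs lack a poly(A) tail, and those of the same core histone type are much alike, so 3′ counts catch them only in part. Some lower genes outside the lists had low counts, such as Exoc3l4 at 23, 18 and 11 against 6, 3 and 2 counts and Nat9, an acetyltransferase gene, at 40, 18 and 23 against 9, 7 and 10 counts. In DNA replication and mitosis 2 of 24 were lower and 1, Cdc20, higher, with a median of -0.08 (0.05 with library totals only), and none was called without chronic replicate 2, naive replicate 1 or naive replicate 3. Of 24 nuclear genes for the respiratory chain 0 were called by edgeR (3 at an unadjusted p below 0.05) and 1 by DESeq2, with a median of -0.04 (0.08 with library totals only). Of 15 mitochondrially encoded mRNAs and rRNAs only mt-Rnr2, the large ribosomal RNA, was lower, by 0.95 on the log2 scale. The call of mt-Rnr2 held in 6 of 15 alternatives. The mitochondrial tRNA gene mt-Tm, outside this list, was also called lower and kept its call in 9 of 15 alternatives.

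After 24 h of IFNγ the same comparison gave 78 genes (0.813%; 22 higher, 56 lower), in other samples. The genes called at 2 h and at 24 h shared 52, which is 6.69% of the 777 and 66.7% of the 78, and 25 of the 52 had opposite directions. The difference between 2 h and 24 h passed the test at 116 genes (1.21%). Of the 62 interferon-list genes higher at 2 h, 49 were called more positive at 2 h than at 24 h, 3 were still higher at 24 h and 21 were lower in chronic than in naive cells. Gbp2 was at 363 ± 27.7 CPM in naive and 108 ± 4.62 CPM in chronic cells at 24 h (SD, n = 3). Chronic cells before rechallenge were at 120 ± 8.49 CPM. The mean log2 CPM of the GTPases was 5.65 ± 0.12 in chronic cells at 24 h and 5.71 ± 0.14 before rechallenge. That of the PARPs was 3.07 ± 0.15 and 3.20 ± 0.29 in the same order. After 1 or 2 weeks of exposure, every 24 h sample was above 7.5 for the GTPases. Whether the fresh dose acted in the 3-week cultures taken at 24 h was not tested. The counts above rest on those cultures. Psmb9 was at 82.4 ± 10.5 CPM in naive and 80.9 ± 7.21 CPM in chronic cells at 24 h, where naive cells had been near 0 at 2 h. H2-D1 was among the 3 that stayed higher, at 98.5 ± 15.2 CPM against 235 ± 16.5 CPM. Hbegf and Egr1 did not pass the test at 24 h, at 59.3 ± 11.1 against 65.6 ± 3.49 CPM and 15.5 ± 7.10 against 4.93 ± 1.76 CPM.

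Chronic cells were also 3 weeks older in culture. Control cultures without IFNγ changed at 50 genes over those 3 weeks (0.521%; 24 higher, 26 lower), 18 of them also called at 2 h and all in the same direction. After subtracting that change, 62 genes passed the test (0.647%; 37 higher, 25 lower), a test with a larger error than the comparison itself, and among them were 22 of the interferon-list genes higher at 2 h, such as H2-D1, H2-T22, Bst2 and Zbp1, as were Hbegf, Plaur, Egr1, Skil, Fdft1, Msmo1 and Bnip3. An effect of age on the 2 h response itself cannot be told apart from the exposure.

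Cells exposed for 1 or 2 weeks and rechallenged for 2 h differed from the same naive samples at 173 genes (1.8%) and 206 genes (2.15%). The mean log2 CPM of the GTPases was 4.59 ± 0.07 in naive cells, 6.73 ± 0.09 at 1 week, 7.52 ± 0.27 at 2 weeks and 7.55 ± 0.14 at 3 weeks (SD, n = 3), so the values at 2 and 3 weeks did not differ beyond their spread. Antigen processing genes stood at 4.52 ± 0.16, 6.56 ± 0.03, 6.97 ± 0.16 and 6.93 ± 0.06 in the same order. The AP-1 and EGR genes were at 3.90 ± 0.15, 4.79 ± 0.18, 4.38 ± 0.07 and 4.59 ± 0.18, with each exposed group above the naive cells and no steady order among the weeks. Single genes took different courses. Skil was at 76.2 ± 6.14 CPM at 1 week, 63.4 ± 10.0 CPM at 2 weeks and 36.6 ± 2.02 CPM at 3 weeks, Plaur at 110 ± 8.60, 246 ± 18.3 and 204 ± 36.4 CPM, and Egr1 at 45.2 ± 27.0, 6.92 ± 1.41 and 35.5 ± 16.8 CPM. Hbegf was at 117 ± 15.2, 119 ± 28.4 and 127 ± 9.03 CPM (SD, n = 3), so the weeks did not differ beyond their spread. Sterol synthesis genes stood at 5.14 ± 0.12 in naive cells and 4.88 ± 0.16, 4.68 ± 0.06 and 4.95 ± 0.05 log2 CPM at 1, 2 and 3 weeks. Fdft1 at 2 h was at 50.3, 50.7 and 67.9 CPM after 1 week and at 37.3, 33.4 and 39.8 CPM after 2 weeks.

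**Figure D5:**
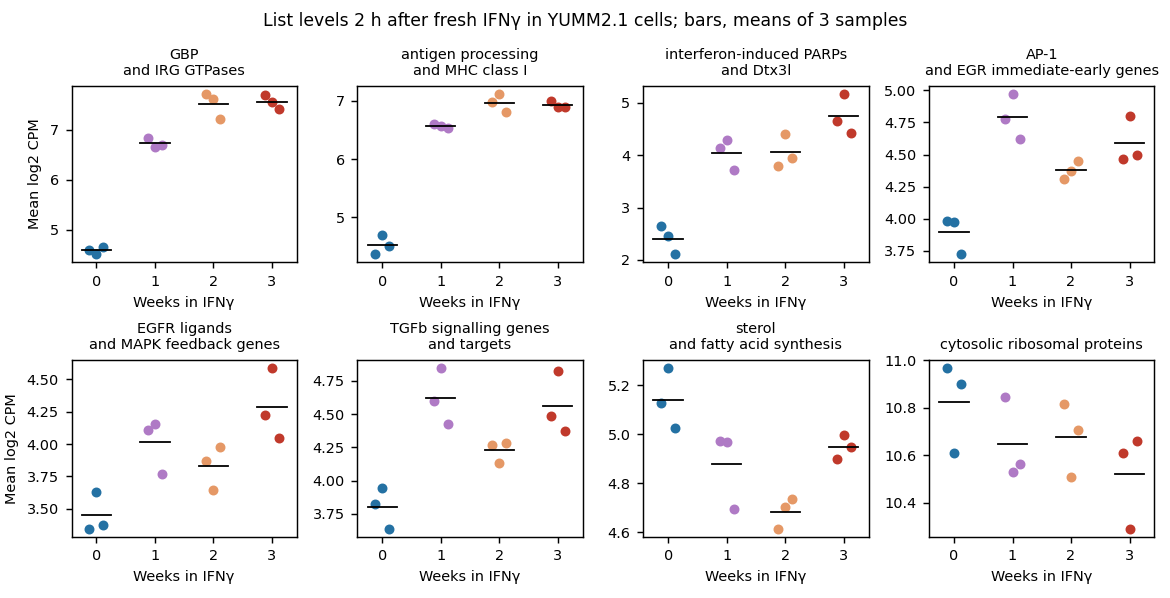
Mean log2 CPM of 8 gene lists in each YUMM2.1 sample 2 h after IFNγ, by weeks of earlier exposure (0 is naive); bars are means of 3 samples, and each panel has its own vertical scale, which does not start at 0. GTPases climb until 2 weeks, AP-1/EGR, EGFR and TGFβ genes are above naive cells at every week, and sterol and ribosomal genes lie lower in most exposed samples.

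The comparison was made in CT26 cells as well, in a fit of all 90 samples with 10339 genes tested, including those of either line that the study set aside. There YUMM2.1 gave 857 genes (8.29%; 381 higher, 476 lower) and CT26 749 (7.24%; 313 higher, 436 lower), with 239 in common, 237 of them in the same direction, which is 27.9% and 31.9% of the lists. Of the 62 interferon-list genes higher in YUMM2.1, 53 were also called higher in CT26, and 4 had a fitted change of 0 there. The 2 lines differed at 49 genes (0.474%; 913 at an unadjusted p below 0.05). Ifit3 and Gbp2 had a larger difference in CT26 (log2 differences of YUMM2.1 less CT26 of -2.73 and -1.39), and H2-D1, Ifi47 and Plaur in YUMM2.1 (1.82, 1.31 and 1.09). CT26 comes from BALB/c mice, whose MHC alleles differ from the C57BL/6 reference, and the part of this in the H2-D1 value was not tested.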

How the data were processed

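RNA of the YUMM2.1 and CT26 time course was sequenced as 3′ digital gene expression libraries. The deposited table holds raw counts, which the authors imported with tximport, and the submitters' processing notes name Salmon 0.13.1 and the mm10 genome. The use of molecular identifiers, the strand setting and the annotation release are not given in the sources used here. The study set aside 1 YUMM2.1 and 4 CT26 samples as outliers and does not name them, and all samples were kept here. Of 53697 gene IDs, 53668 were matched to symbols.

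Groups came from the sample labels. Genes were filtered with filterByExpr (minimum count 10, by group), scaled by TMM and fitted with edgeR 4.0.16 (R 4.3.3, limma 3.58.1) over all 45 YUMM2.1 samples in 15 groups, which share 1 estimate of the spread, and contrasts were tested by quasi-likelihood with Benjamini-Hochberg adjustment at 0.05. The comparison with CT26 used a fit of 90 samples in 30 groups. Named genes were the 12 largest changes in each direction with a mean of at least 10 CPM and groups that did not overlap, up to 4 called genes with the smallest p in each of 30 lists, and Parp14, Cd274, Irf1 and B2m. Genes named outside this rule are said to be so or stand only as examples of a list. Single-gene results of some items are not reported here. The members and lists were chosen with earlier results of these data known. DESeq2 1.42.0 and other settings were alternatives. Totals ran from 274719 to 3161276 counts over the YUMM2.1 samples, and the 95% intervals and floors of 3 counts cover counting error only.

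The procedure was tested on simulated data built from these libraries. Of 200 genes changed by 1 on the log2 scale in the comparison at 2 h, 37% were called among 9261 genes tested, and 68.1% of those above the median level, with 2 false calls. Of 200 genes changed by 2, 84% were called among 9328 genes tested. With no change there were 0 calls among 9263 genes tested. The simulated counts followed the model that the test assumes, so they do not give the error rate in the real libraries. Pairs of replicates differed by 2.22 to 6.55 times the sampling noise (chi-square per degree of freedom), so no library was counted as a copy of another.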

Additional observations from a re-analysis of the deposited data

Results flagged for a closer look

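In 3 sets of genes the effect differed between groups by a test of the difference itself in edgeR's quasi-likelihood fit, and no explanation was tested for any of them. The 2 h response differed between chronic and naive cells at 11 genes. It was larger in chronic cells for Sphk1 (5.53 on the log2 scale), Coq10b (2.45), Hbegf (1.62) and Plaur (1.16). Genes called with a larger response numbered 0 without replicate 2 in all groups and 10 with DESeq2. The genes with a smaller response in chronic cells included Irgm1 (-1.50), Gbp7 (-1.89), Gbp2 (-1.92), Igtp (-2.29), Iigp1 (-2.73) and Irgm2 (-3.03).

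The difference between chronic and naive cells was not the same at 2 h and at 24 h for 116 genes, and 49 of these were among the interferon-list genes higher at 2 h. The GTPase and antigen processing levels at 24 h were lower after 3 weeks than after 1 or 2 weeks of exposure. These 2 counts rest on the 3-week cultures taken at 24 h, and whether the fresh dose acted in them was not tested. Values are the log2 difference at 2 h less that at 24 h. Among the GTPases they were 5.66 for Gbp4, 5.37 for Tgtp2, 4.70 for Iigp1, 4.43 for F830016B08Rik, 4.33 for Gbp2, 4.19 for Tgtp1, 3.79 for Ifi47, 3.14 for Igtp, 2.90 for Gbp7, 1.94 for Irgm2 and 1.65 for Irgm1. Antigen processing genes had 6.4 (Psmb8), 5.46 (Psmb9), 4.96 (Tap1), 2.73 (H2-T22), 2.36 (H2-D1) and 1.03 (B2m). Transcription factors had 6.03 (Batf2), 4.41 (Nlrc5) and 1.36 (Irf1), and the long noncoding RNA 9330175E14Rik, which overlaps the start of Nlrc5 on the other strand, had 4.41. The strand setting of the counts is not given, so these 2 genes could share reads. Antiviral genes had 6.32 (Zbp1), 6.19 (Usp18), 3.20 (Ifit3), 3.04 (Rtp4) and 2.18 (Bst2), and PARPs had 3.23 (Parp9), 3.04 (Parp14), 3.04 (Parp12) and 2.01 (Parp11). The chemokine Cxcl10 had 2.47. Outside interferon targets, the value was 4.34 for Sphk1, 3.96 for Egr1, 2.51 for Skil, 1.95 for Junb, 1.88 for Thbs1, 1.52 for Ccn1, 1.44 for Plaur, 1.40 for Hbegf, 1.36 for Myc, 1.20 for Cdc20 and 1.11 for Hk1. It was negative for Pdia4 (-0.67), Msmo1 (-0.81) and Fdft1 (-0.91).

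The difference between chronic and naive cells at 2 h was not the same in YUMM2.1 and CT26 for 49 genes. It was larger in YUMM2.1 for H2-D1 (1.82 on the log2 scale), Ifi47 (1.31) and Plaur (1.09). It was larger in CT26 for Gbp2 (-1.39) and Ifit3 (-2.73). For the respiratory chain gene Ndufa4 it was more positive in YUMM2.1 (1.01). Ndufa4 did not pass the test in YUMM2.1 and stayed between -0.13 and 0.10 there under the alternatives. The value of 1.01 thus does not mark a larger change in YUMM2.1.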

How the results depend on the processing

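The number of genes called at 2 h moved from 777 to 210 when only the compared groups were filtered, scaled and fitted (7673 genes tested, against 9589), and it was 396 with a log2 fold change of at least 1. It was 784 with DESeq2, with 717 of the 777 kept, and 785 with library totals, with 624 kept. Leaving out 1 replicate number in all groups gave 111 to 666 genes, and leaving out 1 of the 6 libraries gave 183 to 1140, the fewest without chronic replicate 2. The cause of these shifts was not tested. Where samples were left out, the number of samples was smaller as well. The 11 genes with a different 2 h response became 21 with DESeq2, 20 with library totals and 49 with no filter on low counts, and 2 to 9 without a replicate number. The 116 genes that differed between 2 h and 24 h became 77 in the compared groups only and 57 to 107 without a replicate number. The 62 genes beyond the change of control cultures became 104 with DESeq2, 171 with no filter and 30 in the compared groups only, and 13 to 28 without a replicate number. The 49 genes that differed between the lines became 101 with DESeq2, 77 with library totals, 74 with no filter and 20 in the compared groups only, and 5 to 18 without a replicate number.

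Of 101 named genes, 43 kept their direction and their side of the threshold under all 15 alternatives, and over all alternatives 277 of 1505 values lost the call, 1 gained it and 5 turned. All 5 were Ndufa4, not called, with -0.03 in the comparison, 0.10 with library totals, -0.13 to 0.01 without a replicate number and 0.052 without chronic replicate 2. Gene list medians moved by less than the spread between replicates in 352 of 419 cases and by more in 67.

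With the replicate number as a block the count was 743, of which 734 were among the 777, and 11, 114, 64 and 56 genes passed the other tests in the order above. Same-numbered samples had correlations of 0.06, 0.32 and 0.11 and 1 of 3 correlated best with its own number, so the numbers were not taken as pairs. Depth limits the low genes: in the simulation 37% of the 2-fold changes were called, against 68.1% of those above the median level.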
